A study of Mus musculus with 8 samples.

Results

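The Ly6/uPAR genes described here are Ly6d, Ly6e, Ly6a, Ly6g6c, Slurp1, Lypd3 and Lypd5, a named set of 7 genes that was followed in the epidermis of newborn mice with and without the nuclear receptor gene Rora. Each was taken as the row of the gene count table whose Ensembl identifier carries that symbol in the GENCODE mouse annotation of GRCm39. They were 7 of the 55416 genes in the table, and all 7 passed the filter on low counts that left 13147 genes for testing. RNA-seq had been done on the dorsal epidermis of pups at postnatal day 4 (P4), with 4 libraries labelled as epidermal Rora knockout (RoraEKO) and 4 labelled WT, called control here. In RoraEKO mice, a Rora flox/flox strain was combined with K14-Cre, in which the keratin 14 promoter drives the recombinase in basal keratinocytes and so in the cells that descend from them, hair follicles and sebaceous glands included. Whether the controls carried floxed alleles or the Cre transgene and which sex the pups had are not given in the sources used here. By the description of the experiment, 4 mice per genotype were used, as many as there are libraries. The epidermis was peeled from heated back skin as a sheet.

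Proteins of this family are built on a compact fold of disulphide-linked loops, the three-finger fold that snake neurotoxins also have. Most are held on the outer face of the plasma membrane by a glycosylphosphatidylinositol (GPI) anchor, and they act as co-receptors, adhesion partners or regulators of complement and ion channels. A few, among them SLURP1 and SLURP2, have no anchor and are secreted by keratinocytes as ligands of nicotinic acetylcholine receptors. Loss of SLURP1 in humans causes Mal de Meleda, a thickening of the skin of palms and soles. LYPD3 (C4.4A) and LYPD5 (haldisin) are known from the suprabasal layers of stratified epithelia, LY6D as a surface antigen of squamous epithelium, LY6A (Sca-1) from progenitor cells and the upper hair follicle, and LY6E as an interferon-induced surface protein that changes the entry of several viruses. LY6G6C is encoded in the class III region of the major histocompatibility complex and its role in skin is less well known.

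The libraries held between 17286903 and 26705533 counts. Rora itself (ENSMUSG00000032238, chromosome 9, 68561068 to 69295528) was at 212 ± 66.6 CPM (counts per 1000000 counts after TMM scaling, SD, n = 4) in control and 196 ± 34.6 CPM (SD, n = 4) in RoraEKO libraries, so that counts summed over the gene, which do not resolve exons, did not separate the genotypes, and RoraEKO below means the libraries labelled so. Control C1 had 416 and control C6 527 CPM of Xist, the RNA of the inactive X chromosome of female cells, and no other library had more than 0.0546 CPM, so that by Xist the sexes were unequal between the genotypes. Keratinocyte markers were abundant in every library, with sums of 45028 to 107612 CPM for 6 spinous markers and of 11658 to 17618 CPM for 7 granular ones. Markers of endothelium (0.328 to 3.71 CPM, none of 6 tested) and of neutrophils (0 to 1.30 CPM, none of 5 tested) were near absent. Among all genes tested, 302 were higher and 423 lower in RoraEKO at the cutoffs used throughout, which were 0.05 for the adjusted p and 1.5 for the fold change.

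Of the 7 genes, 1 fell and 1 rose in the RoraEKO epidermis. Ly6e fell 5.60-fold, a call that held in all 18 alternatives, and Slurp1 rose 2.06-fold, a call that held in 13 of 18. Ly6g6c and Lypd3 were higher in each RoraEKO library than in each control library by smaller amounts, and did not pass the cutoffs. Ly6d, Lypd5 and Ly6a overlapped between the genotypes. Over all genes tested, 2.3% passed the cutoffs in the higher and 3.22% in the lower direction, and 7.92% and 10.3% had an unadjusted p under 0.05 in these directions, the background for such counts below. Genotypes did not overlap in 3 of the 7 genes with RoraEKO higher, against 5.4% of all genes, and in 1 of the 7 with RoraEKO lower, against 7.54%. The median log2 fold change of the 7 genes was 0.40, beside -0.04 over all genes tested.

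**Figure D1:**
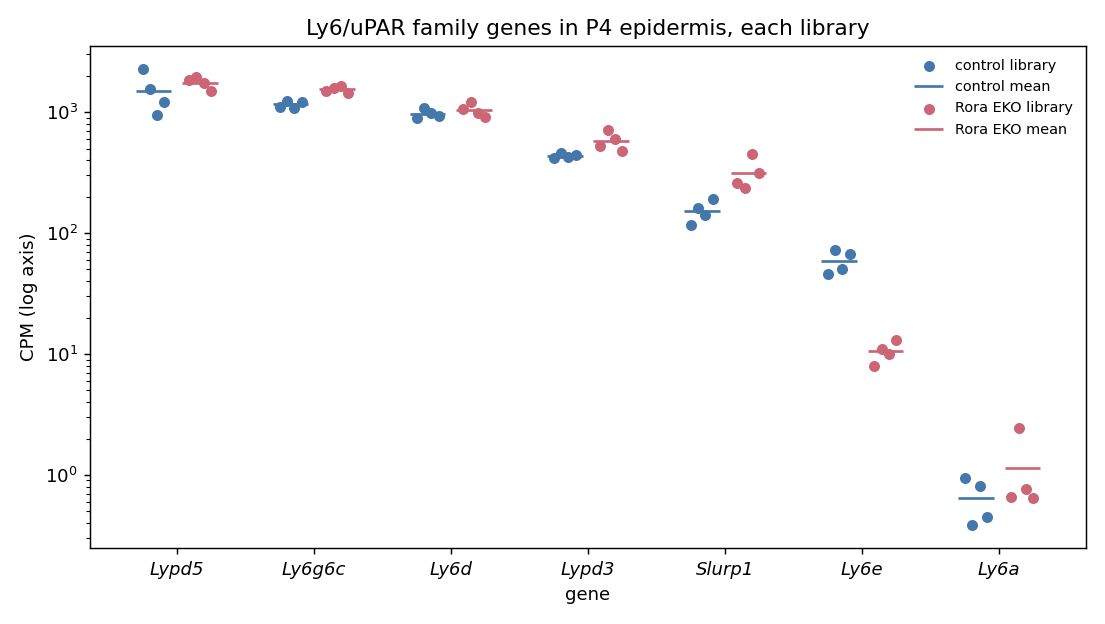
Level of each of the 7 genes in each library, in CPM on a log axis; points are libraries and bars are means of the 4 libraries of a genotype. Ly6e sits at 45.7 to 72.4 CPM in control and at 7.96 to 13.2 CPM in RoraEKO, and single values run from 0.383 CPM for Ly6a to 2284 CPM for Lypd5.

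Together these genes took 0.436 ± 0.0471% (SD, n = 4) of all counts in control and 0.514 ± 0.0679% (SD, n = 4) in RoraEKO libraries. Levels of different genes were compared per kilobase of annotated exon. Ly6d was the most abundant in control epidermis by this measure, at 1111 ± 90.4 CPM per kb (SD, n = 4). Ly6g6c followed at 736 ± 50.9 and Lypd5 at 561 ± 216 CPM per kb (SD, n = 4 each), and the ranges of these 2 genes overlapped. Lypd3 was at 264 ± 9.67, Slurp1 at 51.9 ± 10.6, Ly6e at 12.9 ± 2.84 and Ly6a at 0.139 ± 0.0591 CPM per kb (SD, n = 4 each), and no other neighbours in the order overlapped. With the canonical transcript as the length, an alternative chosen after seeing the data, Ly6g6c stood above Ly6d, at 1206 and 1199 CPM per kb with overlapping ranges, and the other places were the same. The order by exon length was the same in RoraEKO libraries, from 1192 ± 143 CPM per kb for Ly6d to 0.244 ± 0.191 for Ly6a (SD, n = 4 each), while Ly6e stood at 2.31 ± 0.477 and Slurp1 at 107 ± 32.8 CPM per kb (SD, n = 4 each). Ly6d and Ly6g6c overlapped there, at 1039 to 1373 and 911 to 1049 CPM per kb.

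Slurp1, the secreted ligand among the 7, lies on the minus strand of chromosome 15 from 74596167 to 74599892 (ENSMUSG00000022596, GRCm39). Control libraries A1, B1, C1 and C6 held 117, 162, 142 and 190 CPM of it. RoraEKO libraries A3, B4, C2 and C3 held 259, 235, 451 and 313 CPM. The lowest RoraEKO library was above the highest control library, and C2 was the highest of all. The means were 153 ± 31.3 and 314 ± 96.6 CPM (SD, n = 4 each), and the log2 fold change was 1.04 with a standard error of 0.256 and an adjusted p of 0.0289 (edgeR quasi-likelihood test, Benjamini-Hochberg). An exact two-sided permutation test of the log2 CPM gave p = 0.0286, the smallest that 4 against 4 libraries can give. The sample titles begin with a letter whose meaning is not given, and the difference was 1.15 among letter A, 0.54 among letter B and 1.19 among letter C libraries on the log2 scale. The edgeR adjusted p of Slurp1 rose to 0.085 without control replicate B1, 0.0887 without control C1, 0.0766 without RoraEKO C3, 0.0836 without both control libraries that had Xist and 0.066 with Xist as a covariate, while its log2 fold change stayed between 0.89 and 1.22 in all 18 alternatives.

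Ly6e, on the plus strand of chromosome 15 from 74826860 to 74847454 (ENSMUSG00000022587), was the gene of the set with the largest difference between genotypes. In control A1, B1, C1 and C6 it was at 45.7, 72.4, 50.2 and 67.3 CPM. In RoraEKO A3, B4, C2 and C3 it was at 7.96, 10.9, 9.93 and 13.2 CPM. The lowest control library was 3.47 times the highest RoraEKO library. The level fell from 58.9 ± 12.9 to 10.5 ± 2.17 CPM (SD, n = 4 each), by 2.48 on the log2 scale with a standard error of 0.220 and an adjusted p of 0.000238 (edgeR quasi-likelihood test), the rank 20 by p among all genes tested. The exact permutation p was again 0.0286. Within letters A, B and C the log2 difference was -2.51, -2.72 and -2.34. Since these are bulk samples, fewer cells that express a gene and less RNA of it per cell cannot be told apart for Ly6e or any other gene here.

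The ratio of Slurp1 to Ly6e, read as counts and not per length, was 2.24 to 2.83 in control and 21.5 to 45.4 in RoraEKO libraries. That of Ly6d to Ly6e was 13.9 to 19.6 in control and 69.0 to 135 in RoraEKO libraries. Within a library these ratios do not depend on scaling between libraries. Both ratios separated the genotypes without overlap, which the values of the single genes already fix, so that the ratios are no separate evidence.

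Ly6a, the other interferon-induced surface antigen of the set (ENSMUSG00000075602, chromosome 15, 74863840 to 74869880, minus strand), was barely expressed, with 7 to 60 counts in a library. The control values were, in the order A1, B1, C1 and C6, 0.952, 0.383, 0.805 and 0.450 CPM. The RoraEKO values were, in the order A3, B4, C2 and C3, 0.653, 2.47, 0.771 and 0.649 CPM. Replicate B4 stood above the others and the genotypes overlapped. Means were 0.647 ± 0.275 and 1.13 ± 0.889 CPM (SD, n = 4 each). Their log2 fold change was 0.82 with a standard error of 0.511 (adjusted p = 0.492 by the edgeR quasi-likelihood test), and it was 0.09 without B4.

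Lypd3 encodes the suprabasal surface protein C4.4A (ENSMUSG00000057454, chromosome 7, 24335970 to 24340543, plus strand). Its levels in control A1, B1, C1 and C6 were 420, 457, 429 and 442 CPM, the lowest coefficient of variation of the set. Its levels in RoraEKO A3, B4, C2 and C3 were 520, 709, 602 and 474 CPM. All RoraEKO libraries lay above all control libraries, by 17.1 CPM at the nearest. The means of 437 ± 16.0 and 576 ± 103 CPM (SD, n = 4 each) gave a log2 fold change of 0.40 with a standard error of 0.13, an adjusted p of 0.203 (edgeR quasi-likelihood test) and an exact permutation p of 0.0286. The coefficient of variation was 3.66% among control and 17.9% among RoraEKO libraries.

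Ly6g6c (ENSMUSG00000092586, chromosome 17, 35284316 to 35289026, plus strand) had a log2 difference close to that of Lypd3. In control A1, B1, C1 and C6 it was at 1094, 1236, 1088 and 1223 CPM. In RoraEKO A3, B4, C2 and C3 it was at 1509, 1586, 1654 and 1436 CPM. The genotypes did not overlap, and the coefficient of variation was 6.92% among control and 6.11% among RoraEKO libraries. From 1160.2 ± 80.3 to 1546 ± 94.5 CPM (SD, n = 4 each), the log2 fold change was 0.41 with a standard error of 0.0667, an adjusted p of 0.157 by the edgeR quasi-likelihood test and an exact permutation p of 0.0286. DESeq2 gave Ly6g6c an adjusted p of 0.00113 with a log2 fold change of 0.44, which is under the fold cutoff.

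Ly6d, the squamous surface antigen (ENSMUSG00000034634, chromosome 15, 74633902 to 74635597, minus strand), overlapped between the genotypes. Its levels in control A1, B1, C1 and C6 were 891, 1076, 985 and 937 CPM. Its levels in RoraEKO A3, B4, C2 and C3 were 1072, 1202, 987 and 909 CPM. Letters A and B were higher in RoraEKO, by 0.27 and 0.16 on the log2 scale, and letter C was not, at -0.02. The means of 972 ± 79.1 and 1043 ± 125 CPM (SD, n = 4 each) gave a log2 fold change of 0.10 with a standard error of 0.104 and an adjusted p of 0.824 (edgeR quasi-likelihood test).

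Lypd5, the granular layer antigen haldisin (ENSMUSG00000030484, chromosome 7, 24043489 to 24054534, plus strand), differed more among control libraries than between the genotype means. Control libraries A1, B1, C1 and C6 held 2284, 1564, 945 and 1220.4 CPM. RoraEKO libraries A3, B4, C2 and C3 held 1829.6, 1940.0, 1729.55 and 1487 CPM. The coefficient of variation was 38.5% in control and 11.1% in RoraEKO libraries, and the RoraEKO values lay inside the control range. From 1503 ± 579 to 1747 ± 193 CPM (SD, n = 4 each), the log2 fold change was 0.22 with a standard error of 0.283 and an adjusted p of 0.766 (edgeR quasi-likelihood test). Its log2 fold change was 0.49 without control A1 and 0.05 without control C1, and its direction turned to -0.16 with Xist as a covariate and to -0.09 without control replicates C1 and C6.

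Hair follicle markers varied among the same control libraries. The sum of 7 such markers was 20500.4 CPM in control A1, 10469 in B1, 3463 in C1 and 2963 in C6, and 14586 CPM in RoraEKO A3, 11889.6 in B4, 5850.0 in C2 and 6194 in C3. Most of it came from Krt71, a keratin of the inner root sheath, at a mean of 7934 CPM in control. All 7 markers were tested and 0 passed the cutoffs in either direction by the edgeR test, with 0 at an unadjusted p under 0.05. Among the other family genes, Pinlyp, a family gene beside Lypd3, was at 660 CPM in control A1, 301 in B1, 92.7 in C1 and 64.0 in C6. The same order of libraries held for Pinlyp in RoraEKO, at 522 CPM in A3, 406 in B4, 230 in C2 and 151 in C3. Ly6g6d was at 328, 116, 133 and 48.1 CPM in control A1, B1, C1 and C6, and at 186, 141, 66.2 and 89.6 CPM in RoraEKO A3, B4, C2 and C3. The highest value of Lypd5, Pinlyp and Ly6g6d came from control A1, the library with the highest hair follicle sum. Other family genes differed, and for Ly6m and Lynx1 control A1 was the lowest control library, at 69.8 and 18.8 CPM. Among RoraEKO libraries the sum was highest in A3 and Lypd5 in B4. The part of hair follicle cells in these differences was not tested.

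**Figure D2:**
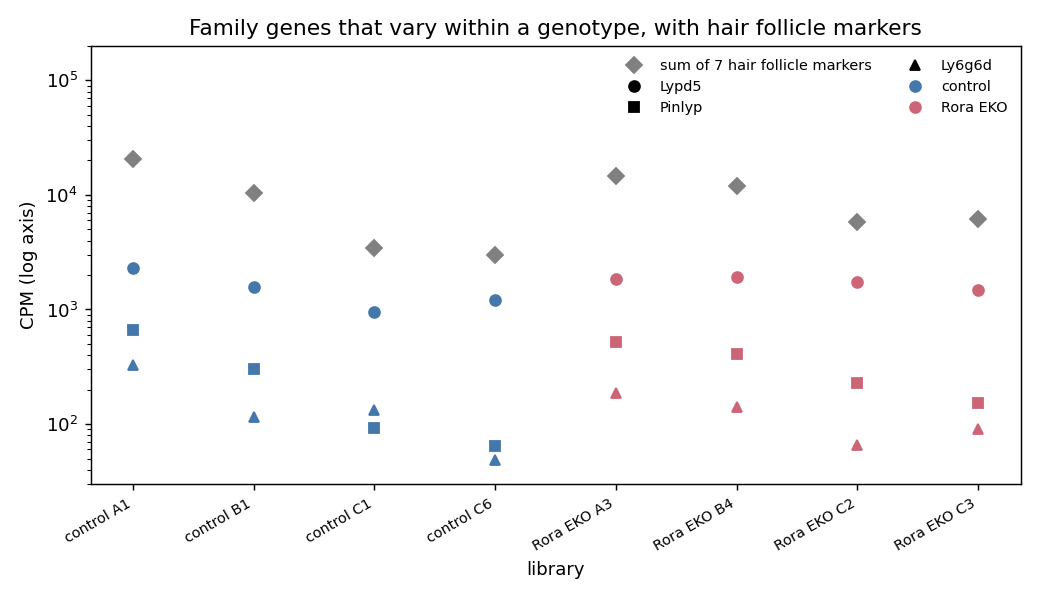
Levels of Lypd5, Pinlyp and Ly6g6d and the sum of 7 hair follicle markers in each library, in CPM on a log axis; blue points are control, red points RoraEKO libraries and grey diamonds the marker sum. Control A1 is highest for all 3 genes and for the sum, at 2284, 660, 328 and 20500.4 CPM.

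The listed family held 43 further genes, of which 13 passed the filter on low counts and 30 did not. Among the 13, 1 was higher and 0 were lower in RoraEKO by the edgeR quasi-likelihood test, with 2 and 0 at an unadjusted p under 0.05, and no other test run gave a lower one. Their median log2 fold change was -0.09, beside -0.04 over all genes. The higher one was Slurp2, the second secreted ligand of the family (chromosome 15, 74614609 to 74618542, minus strand). Control libraries A1, B1, C1 and C6 held 90.1, 93.0, 104 and 103 CPM of Slurp2, and RoraEKO libraries A3, B4, C2 and C3 held 169.99, 129, 234 and 164 CPM. All RoraEKO libraries were above all control libraries, and C2 was highest, as for Slurp1. Slurp2 rose from 97.4 ± 6.96 to 174 ± 43.5 CPM (SD, n = 4 each), by 0.84 on the log2 scale with a standard error of 0.183 and an edgeR adjusted p of 0.0216. Slurp2 no longer passed in the same 5 alternatives as Slurp1, with edgeR adjusted p of 0.0523 to 0.0832 and log2 fold changes of 0.82 to 0.98 there. The ratio of Slurp1 to Slurp2 counts was 1.29 to 1.85 in control and 1.52 to 1.93 in RoraEKO libraries, so that it overlapped between genotypes.

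**Figure D3:**
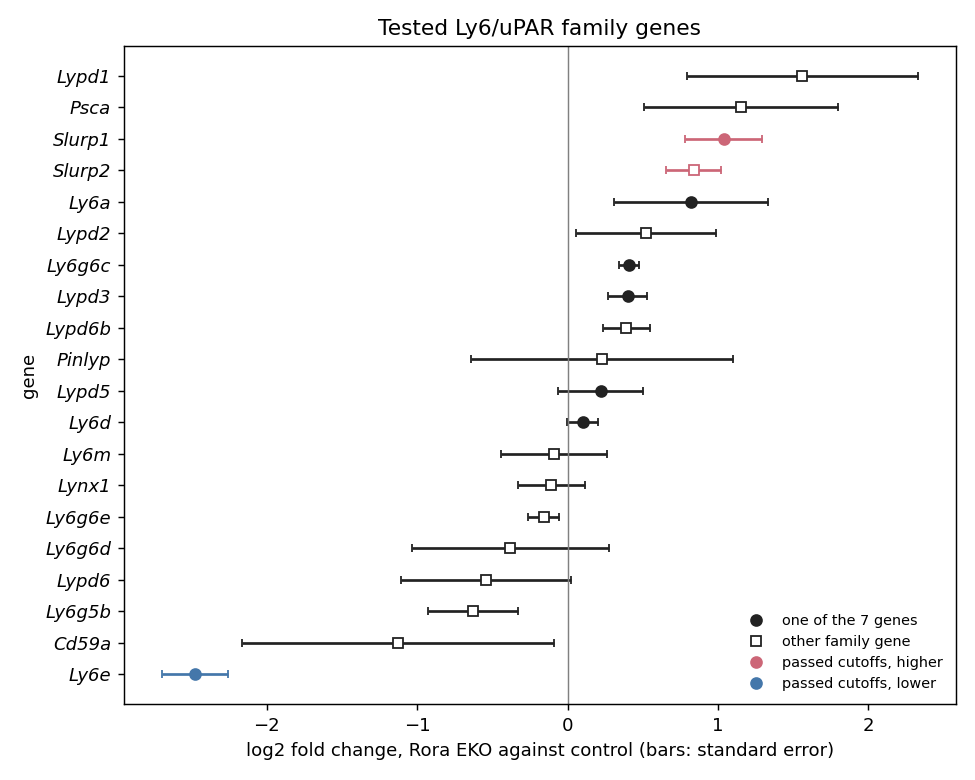
Log2 fold change of the 20 tested family genes, RoraEKO against control, with standard errors as bars; circles are the 7 genes of the set, squares the other 13, and colours mark the genes that passed the cutoffs. Slurp1 (1.04) and Slurp2 (0.84) are coloured as higher and Ly6e (-2.48) as lower.

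Pinlyp had the highest CPM of the 13, not scaled by length, at 280 ± 275 CPM in control and 327 ± 168 CPM in RoraEKO libraries (SD, n = 4 each), and the log2 fold change of 0.23 had an edgeR adjusted p of 0.925. Lypd6b, a modulator of nicotinic receptors, had the second unadjusted p under 0.05, at 57.9 ± 13.0 and 76.2 ± 2.91 CPM (SD, n = 4 each), and the log2 fold change of 0.39 had an edgeR adjusted p of 0.204. Lynx1, an anchored modulator of nicotinic receptors that lies beside Slurp2, was at 26.9 ± 5.54 and 24.9 ± 5.65 CPM (SD, n = 4 each), and its log2 fold change was -0.11. Psca, Lypd1, Lypd2, Lypd6, Cd59a and Ly6g5b were at 6.53 CPM or less in every library. Plaur, the urokinase receptor after which the family is named, reached at most 29 counts in a library and was not tested. Of the 30 genes under the filter, 21 had 3 counts or fewer in every library, the neutrophil antigen Ly6g among them.

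Slurp1, Ly6d, Ly6e and Ly6a share the Ly6 cluster of chromosome 15. Between the outermost listed genes of this cluster, 74586682 to 75471331, the table held 49 genes, and 11 of them were tested. Slurp1 and Slurp2 rose, Ly6e fell, and the other 8 did not pass the cutoffs. Counted from the left end of Ly6e, Slurp1 and Slurp2 begin at -231 and -212 kb. Ly6d, at -193 kb, had a log2 fold change of 0.10, and Ly6m and Ly6a, the nearest tested genes at -78.0 and 37.0 kb, had -0.09 and 0.82. Ly6g6g, a cluster gene outside the fixed list that was noticed after its values were seen, was at 375 ± 325 and 214 ± 105 CPM (SD, n = 4 each), and the log2 fold change of -0.81 had an edgeR adjusted p of 0.53. Around the other 3 genes, 0 of 17 other tested genes within 100 kb of Ly6g6c, 0 of 6 within 100 kb of Lypd3 and 0 of 4 within 100 kb of Lypd5 passed the cutoffs by edgeR, with 3, 1 and 1 at an unadjusted p under 0.05.

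**Figure D4:**
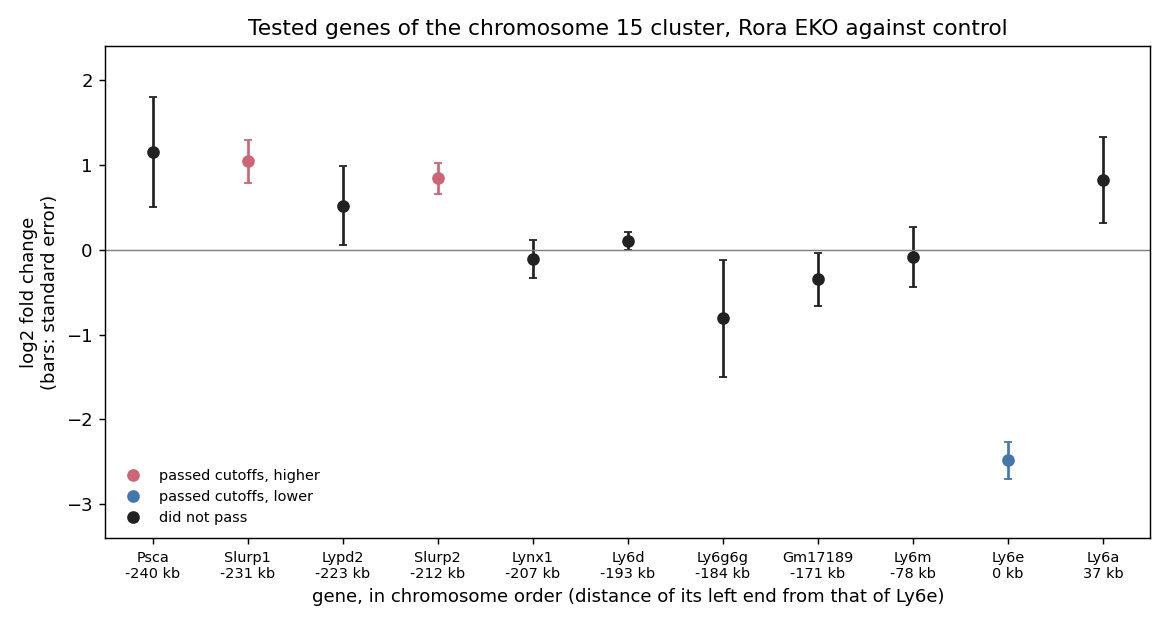
Log2 fold change of the 11 tested genes of the chromosome 15 cluster in their order on the chromosome, with standard errors as bars and the distance of each gene's left end from that of Ly6e in kb. Slurp1 and Slurp2 are higher, Ly6e is lower at -2.48, and Ly6m (-0.09) and Ly6a (0.82) on its sides did not pass the cutoffs.

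Nicotinic receptors are the known target of the secreted SLURP proteins. Of 16 listed subunit genes, 4 passed the filter, all at a few CPM or less, and 1 was lower and 0 higher in RoraEKO. The 4 had a median log2 fold change of -0.27, which does not depend on the bound used for Chrnb4. Chrnb4, which encodes the beta 4 subunit, held 14, 41, 13 and 49 counts in control A1, B1, C1 and C6 (0.533, 2.24, 0.615 and 1.84 CPM) and 1, 2, 3 and 0 counts in RoraEKO A3, B4, C2 and C3. Against a floor of 3 counts per library its mean was lower by at least 8.52-fold, a bound that leaves out the spread among control libraries. Chrnb4 passed the filter on low counts only through the control libraries (edgeR adjusted p = 0.0128, and 0.0582 without control replicates C1 and C6, where the bound was at least 9.04-fold). Chrna3, Chrnb1 and Chrnb2 had log2 fold changes of -0.39, -0.14 and -0.10 and did not pass. Chrna7 and Chrna9, which encode subunits described as SLURP1 targets, had at most 2 and 0 counts in a library.

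Genes for assembling and remodelling the GPI anchor, which the surface members of the family need, showed no call. Of 30 tested, 0 were higher and 0 lower by edgeR, with 3 and 2 at an unadjusted p under 0.05, and their median log2 fold change was -0.03. Pigt, a subunit of the transamidase, had the highest CPM of the list, not scaled by length, at 65.8 ± 11.8 and 64.8 ± 5.54 CPM (SD, n = 4 each).

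Of 11 tested interferon-induced genes, 1 was higher and 1 lower in RoraEKO and the others did not pass the cutoffs. Their median log2 fold change was 0.23. Irf7, a transcription factor of the interferon response with the highest control CPM of these, held 11.5, 17.8, 15.9 and 30.9 CPM in control A1, B1, C1 and C6 and 4.57, 3.16, 5.83 and 3.89 CPM in RoraEKO A3, B4, C2 and C3. It fell by 2.13 on the log2 scale with a standard error of 0.347 and an edgeR adjusted p of 0.00441. Mx1, an antiviral GTPase, held 11, 5, 9 and 13 counts in control A1, B1, C1 and C6. In RoraEKO A3, B4, C2 and C3 it held 11, 76, 83 and 84 counts, and it passed the filter on low counts only through these libraries. The mean of Mx1 was 0.401 ± 0.0910 CPM in control and 3.01 ± 1.60 CPM in RoraEKO (SD, n = 4 each). Its log2 fold change was 2.88 with an edgeR adjusted p of 0.0098 (0.0799 without control C1 and C6, where the log2 fold change was 3.13). Isg15 and Ifitm3 had log2 fold changes of 0.97 and 0.22 and did not pass.

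Among partners of LYPD3, Agr2 and Agr3 had at most 2 counts in a library. The integrin genes Itga6 and Itgb4 had log2 fold changes of -0.26 and -0.45 and did not pass. Itgb4, the one with the higher CPM, was at 5.75 ± 3.39 and 4.20 ± 2.52 CPM (SD, n = 4 each).

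The genes most like each member in log2 CPM over the 8 libraries are given as a description, since the points differ in genotype and depth and every gene is read from the same 8 libraries. For Ly6e they were Gm13536, Rnf5 and Hs3st6 (Pearson r 0.995, 0.994 and 0.991), which fell with log2 fold changes of -4.14, -0.65 and -5.14. Slurp1 was followed most closely by Sfxn5, Samhd1 and Casp14 (r 0.988, 0.980 and 0.980), and Casp14, the caspase that processes filaggrin, was at 1476 CPM in control and 2296 CPM in RoraEKO without passing the cutoffs (log2 fold change 0.64, edgeR adjusted p = 0.0717). For Ly6g6c these were Card19, Slc6a9 and Pam (r 0.986, 0.984 and 0.982), and for Lypd3 Hdac4, Dusp7 and Aspg (r 0.974, 0.969 and 0.967). Lypd5 went with Paqr8, Dop1b and Myo6 (r 0.986, 0.982 and 0.980), none of which passed the cutoffs. Ly6d had Svbp, 9230114K14Rik and Tpi1 (r 0.956, 0.940 and 0.933), and Ly6a had Ada, Daxx and Lpin2 (r 0.974, 0.954 and 0.949). Between members, r was highest for Ly6g6c with Slurp1 (0.905) and Ly6g6c with Lypd3 (0.867), and lowest for Ly6e with Ly6g6c (-0.879).

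Beside the higher values of Slurp1, Ly6g6c and Lypd3, the spinous keratins Krt1 and Krt10 had log2 fold changes of 0.70 and 0.66, while Dsc1 was at 0.37, Dsg1a at 0.02, Sbsn at -0.04 and Krtdap at -0.34. The sum of the 6 markers, mostly Krt1 and Krt10, was 45028 to 70981 CPM in control and 86356 to 107612 CPM in RoraEKO libraries without overlap, although 0 of 6 passed the cutoffs by edgeR, with 1 at an unadjusted p under 0.05. Granular markers were at 11658 to 15361 and 13293 to 17618 CPM, with 0 of 7 past the cutoffs and 1 at an unadjusted p under 0.05. Erythroid markers ran from 47.8 to 334 CPM in control and from 125 to 1041 CPM in RoraEKO, melanocyte markers from 25.2 to 56.2 and from 17.3 to 33.2 CPM, and in both lists 0 of 5 passed, with 4 and 3 at an unadjusted p under 0.05. In the lists for basal keratinocytes, sebocytes, dermal fibroblasts, T cells, Langerhans cells and skeletal muscle, 0 tested markers passed by edgeR, with 1 (Krt15, lower) at an unadjusted p under 0.05. The part of any of these cell types in the values of the family was not tested.

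**Figure D5:**
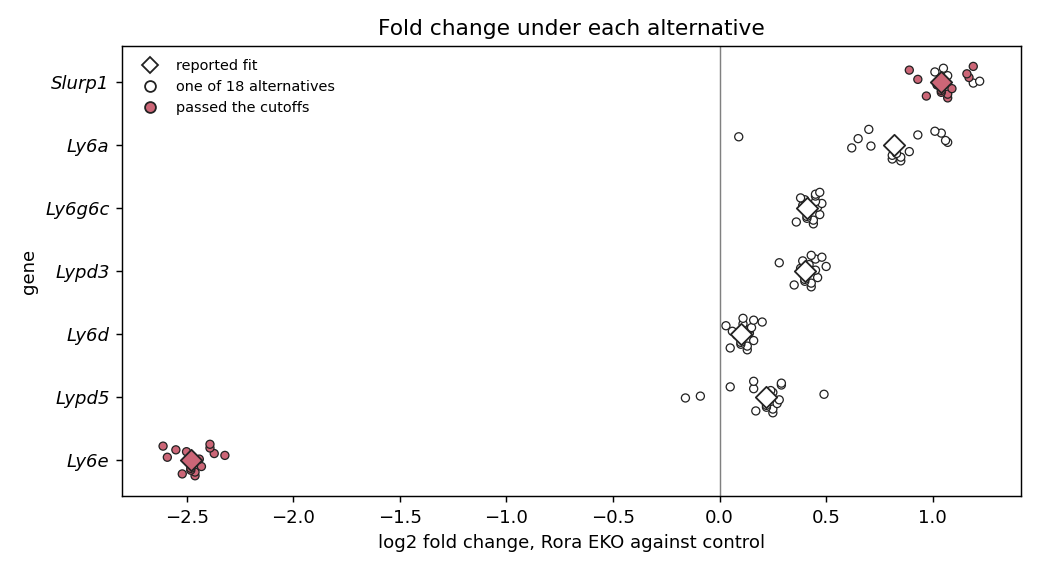
Log2 fold change of the 7 genes in the reported fit (diamonds) and in 18 alternatives (circles), filled where the cutoffs were passed. Ly6e is filled throughout between -2.61 and -2.32, Slurp1 in 13 of 18, and Lypd5 lies on both sides of 0.

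Some genes of the set overlap others on the opposite strand, and whether the counting used strand is not given in the sources used here. Ly6g6c overlaps Ly6g6d and Mpig6b, and Slurp1 overlaps Them6, which held 69 counts in all 8 libraries together. Lypd3 overlaps the noncoding Gm26550 with 276 counts, and Ly6e and Lypd5 overlap noncoding genes that were not analysed here. Ly6a has close relatives in its cluster, between which reads could have been split. Irf7 overlaps Phrf1 with 9125 counts. Reads in shared stretches could have been assigned to either gene of such a pair.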

How the data were processed

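RNA-seq of P4 dorsal epidermis was analysed in 8 libraries, 4 control and 4 RoraEKO, grouped by GEO's genotype label. The authors prepared stranded poly(A) libraries, mapped the read pairs to GRCm39 with STAR 2.5.3a and deposited RSEM expected counts per Ensembl gene, without scaling for depth or length. The gene annotation release they used is not given in the sources used here. Symbols and coordinates came from the GENCODE annotation in the reference, which held 54749 of the 55416 identifiers. After rounding and the filterByExpr filter, expected counts were scaled by TMM, and genotypes were compared by edgeR 4.0.16 (quasi-likelihood, legacy form, R 4.3.3, no covariate). Benjamini-Hochberg adjustment was over all 13147 genes tested, and the cutoffs were 0.05 for the adjusted p and 1.5 for the fold change. The authors' text names edgeR and these cutoffs but not the edgeR test. Standard errors belong to the difference between genotype means of log2 CPM, computed with a prior count of 2. Single genes were also compared by an exact two-sided permutation test, whose smallest p is 0.0286. Where every library of a genotype held 3 counts or fewer, the fold is a bound against 3 counts in each library. Such a floor covers counting error only.

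The members and gene lists were chosen with earlier results of these data known. The genes named were the 7 members, the tested family genes past the cutoffs or highest in CPM, those past the cutoffs or highest in CPM in the other lists, the 3 genes most correlated with each member, Rora and Xist. Other genes named were chosen after their values were seen. Alternatives were DESeq2 1.42.0, edgeR's likelihood ratio test and non-legacy form, scaling by RLE or by library size, 2 other filters, the letter that opens each sample title as a block, Xist as a covariate, removal of the control libraries with Xist, and each library left out in turn. Nothing says that libraries came from separate litters. The p-values set the difference between genotypes against the spread among these libraries, and whether it holds in other litters was not tested. The scripts were tested on simulated data.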

Additional observations from a re-analysis of the deposited data

Results flagged for a closer look

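Of 46 groups of 4 libraries examined, each a family gene in 1 genotype or a further gene of the report, 6 held a library that stood apart. Its gap to the nearest of the other 3 was, relative to the group's range, above Dixon's 95% critical value. A chance rate of about 1 in 20 groups holds for independent normal values. These groups are CPM values from the same 8 libraries, so the 6 cannot be set against that rate. Ly6a was at 2.47 CPM in RoraEKO replicate B4, against 0.649 to 0.771 CPM in the other RoraEKO libraries. Lypd1 was at 6.53 CPM in the same replicate, against 0.749 to 1.64 CPM. Other genes stood high in RoraEKO replicate C2, Ly6g5b at 3.57 CPM against 1.93 to 2.05, Lynx1 at 33.3 CPM against 21.8 to 22.3 and Lypd6b at 80.5 CPM against 74.4 to 75.0. Cd59a was at 4.61 CPM in control replicate A1, against 0.450 to 0.757 CPM in the other control libraries.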

How the results depend on the processing

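The fall of Ly6e was called in all 18 alternatives, and no other listed family gene was called lower in any of them. Slurp1, the gene of the set called higher, and Slurp2, the other family gene called higher, passed in 13 of 18 each. With Xist as a covariate and without both control libraries with high Xist, the count of called higher genes was 0 for the set and 0 for the other family genes. Leaving out 1 library at a time gave 0 to 1 for each count, with 0 without control B1, control C1 or RoraEKO C3. The log2 fold change of Lypd5 turned to -0.16 with the Xist covariate and -0.09 without C1 and C6, and no other member changed direction. The cause of these changes was not tested. With the title letter as a replicate block the calls were the same, Slurp1 (edgeR adjusted p = 0.0099) and Ly6e, 1 higher and 1 lower. Deviations of control and RoraEKO libraries from their genotype means correlated over the tested genes with r 0.483 (A), 0.0498 (B) and 0.592 (C). Libraries of letters A and C thus deviated together, and those of letter B hardly did. Since the meaning of the letters is not given, they served only as an alternative block. Values of Ly6a rest on 60 counts or fewer per library.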
